A study of Homo sapiens with 6 samples.

Results

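Kinesins are motor proteins that walk along microtubules or take their ends apart. Their genes were examined in SKOV3 cells, an established human ovarian carcinoma cell line, after silencing of the long non-coding RNA NRCP. A gene counted as a kinesin when the annotated symbol of its probe was KIF with a number and an optional letter, or KIFC1, KIFC2 or KIFC3. This gave 57 probes for 41 genes, of 47231 probes and 20046 named genes on the array, and the probe with the highest mean signal stood for each of the 13 genes that had several. CENPE, a kinesin named after the centromere, falls outside this naming and is described with the partner genes. By known role 14 of the 41 genes were placed among the mitotic kinesins, 17 among the transport kinesins and 10 among the kinesins of cilia and others, and KIF18B, a further mitotic kinesin, is not analysed here.

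The study compared 3 samples treated for 48 h with an siRNA against NRCP (siNRCP) with 3 treated with a control siRNA (sicontrol). Both groups were the same parental cell line with no other agent named in the labels, and each sample was read on 1 Illumina BeadArray. The question put to the arrays was what loss of NRCP does to the transcriptome. NRCP itself is not among the annotated probes, and its own level is not analysed here. The labels give the treatments as triplicates but do not say whether these were separate cultures, so a p-value here speaks only of how far these 6 arrays scatter, and that scatter may be technical.

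Kinesins share a motor domain that turns ATP into movement and differ in the tails that bind cargo. Mitotic kinesins build and shorten the spindle, move chromosomes and bring about the final cleavage of the cell, and most of them are made shortly before division. Transport kinesins carry vesicles, mitochondria and protein complexes outward from the centre of the cell and also work in cells that do not divide. A further set acts in or near the cilium, a thin microtubule-based projection, and includes members whose role is less well known. Inhibitors of the spindle kinesin encoded by KIF11 have been tried as cancer drugs.

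Values are log2 intensities after background correction and quantile normalization, and a change is siNRCP minus sicontrol in log2 units with its standard error. It was called when the adjusted p of limma, a linear model fitted to every probe with shared estimates of spread, was under 0.05. Mean raw intensity was 554 on siNRCP array 1, close to the sicontrol arrays (555 to 563), whereas siNRCP arrays 2 and 3 were dimmer, at 373 and 486. The part of this raw signal in the kinesin values was not tested. A probe was taken as above background when it exceeded, on at least 3 arrays, the 95th percentile of 437 olfactory receptor probes, and between 39.8% and 44.0% of all probes exceeded that level on an array. Over the probes above background, deviations from the group mean correlated at 0.54 between siNRCP arrays 2 and 3, at -0.91 between arrays 1 and 2 and at -0.85 between arrays 1 and 3. Deviations of 3 arrays from their own mean correlate at -0.50 when the arrays scatter independently and equally, and the sicontrol pairs lay between -0.83 and -0.26. The siNRCP arrays thus split into array 1 on one side and arrays 2 and 3 on the other. Deviations of sicontrol array 1 correlated at 0.50 and 0.63 with those of siNRCP arrays 2 and 3, and at -0.64 with siNRCP array 1. Those of sicontrol array 2 correlated at -0.43 and -0.53 with siNRCP arrays 2 and 3, and at 0.54 with siNRCP array 1. The pattern of this split was thus also present between sicontrol arrays 1 and 2. Results that rest on siNRCP array 1 are therefore given with and without it. The 7 epithelial markers of the line were above background on all 6 arrays. Of the immune markers 0 of 3 measured passed that level, PTPRC and CD3E on 0 arrays, and of the endothelial markers only PECAM1 passed it, on 3 arrays. Of 4 fibroblast markers COL1A1 and COL1A2 passed it, within 0.16 log2 units of sicontrol.

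Of the 41 kinesin genes 28 were above background. They were 12 mitotic, 11 transport and 5 other kinesins. In SKOV3 cells treated with siNRCP 1 kinesin gene rose, KIF1C, and 0 fell, against 1.27% of all named genes called higher and 1.51% called lower (2.21% and 2.62% of those above background). At an unadjusted p under 0.05, 9 kinesin genes were higher and 1 was lower, against 18.1% and 15.5% of all named genes above background. Among the 28 genes above background 7 had all siNRCP arrays above all sicontrol arrays, against 15.7% of all named genes above background. The groups were separated in the other direction for 0 of the 28, against 14.9% of all named genes above background. The median change of the 28 genes was 0.34, with 23 positive and 5 negative, and that of all named genes above background was 0.02, with 51.4% positive. Over all 41 genes the median was 0.16, with 32 positive and 9 negative.

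siNRCP array 1 held lower kinesin values than the other siNRCP arrays. In each of the 28 genes above background siNRCP arrays 2 and 3 both lay above siNRCP array 1, which was the case in 51.9% of all named genes above background. Without that array 20 of the 41 kinesin genes were called higher and 0 lower in limma, all of them above background. The same fit called 17% of all named genes higher and 14.2% lower (29% and 24.5% of those above background). The 20 were 11 mitotic, 6 transport and 3 other kinesins, and the median change of the 28 genes above background was then 0.57. Leaving out siNRCP array 1 leaves 2 arrays, whose spread is small, and 21% of all probes were called in that fit against 1.65% with all arrays. As siNRCP array 1 was the lowest siNRCP array in all 28 genes, leaving it out moves their changes up. The direction of that shift was fixed by the choice of array. Adjusted p-values of that fit, here and below, are therefore no independent support for the kinesin changes. Limma called 0 kinesin genes when siNRCP array 2 or siNRCP array 3 was left out instead, and 6 and 7 then had an unadjusted p under 0.05. Of all 47231 probes 4650 and 4578 had an unadjusted p under 0.05 in those fits.

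**Figure D1:**
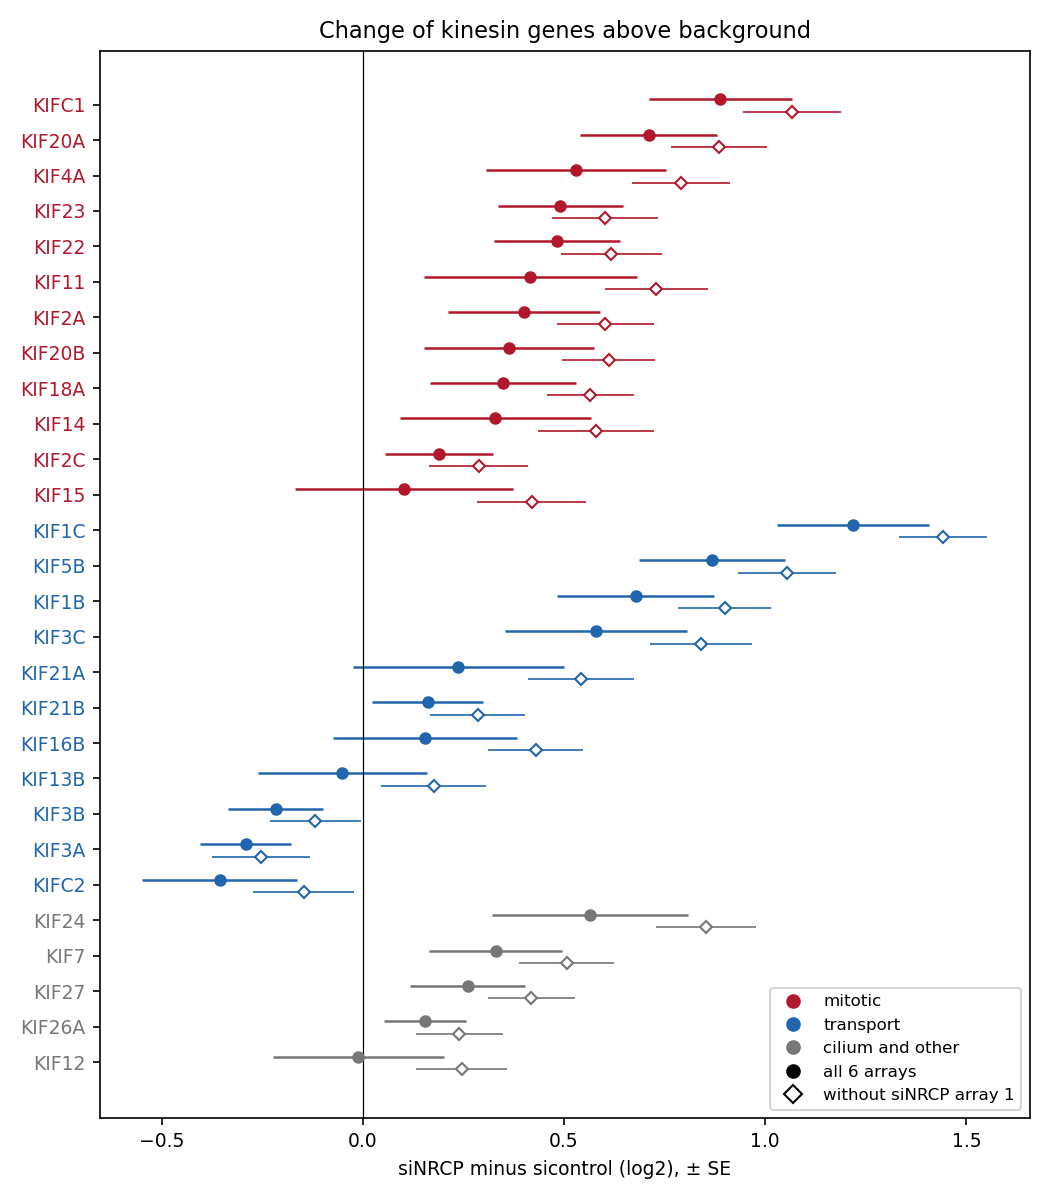
Change of the 28 kinesin genes above background, siNRCP minus sicontrol on the log2 scale, with bars for the standard error. Filled circles use all 6 arrays and open diamonds leave out siNRCP array 1. The 12 mitotic genes all lie right of 0, of which KIF2C and KIF15 lie left of it after median scaling, and the transport genes spread from -0.36 (KIFC2) to 1.22 (KIF1C).

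Among the mitotic kinesins the 14 genes measured had a median change of 0.38. Of their changes 14 of 14 were positive, against 51.7% of all named genes, and 12 remained positive after median scaling, where KIF2C and KIF15 turned negative. The 12 genes above background had a median of 0.41 and were all positive, against 51.4% of all named genes above background. None of the 14 passed the test with all arrays. An unadjusted p under 0.05 was found for 5, all higher and above background, against 18.1% of all named genes above background. In a bulk RNA sample a larger number of cells close to division and more RNA per cell cannot be told apart. KIF2B and KIF4B were at background. KIF4A and KIF4B are near-identical copies, so the KIF4A value is uncertain in its assignment.

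KIFC1 encodes a motor that walks to the minus end and bundles spindle poles, and it is known for clustering extra centrosomes in cancer cells. Its values were 9.95, 10.45 and 10.58 in siNRCP and 9.56, 9.24 and 9.51 in sicontrol. All siNRCP arrays lay above all sicontrol arrays, by 0.39 at the nearest pair. The change of 0.89 ± 0.18 did not pass the test (limma, adjusted p = 0.0614), and without siNRCP array 1 it was 1.07 ± 0.12 (adjusted p = 7.94e-06).

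KIF11 encodes the motor that pushes spindle poles apart. It read 9.94, 11.08 and 10.72 in siNRCP and 10.27, 10.03 and 10.20 in sicontrol. siNRCP array 1 lay below every sicontrol array and siNRCP arrays 2 and 3 above every one, so the groups overlapped. The change was 0.42 ± 0.26 (limma, adjusted p = 0.572), and a second probe gave 0.39 ± 0.29. KIF15, which can stand in for KIF11 on the spindle, differed by 0.10 ± 0.27 and did not pass (limma, adjusted p = 0.924), and it is named here after its value was seen.

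Of the motors on chromosome arms, KIF22 read 10.61, 11.09 and 10.96 in siNRCP and 10.63, 10.24 and 10.34 in sicontrol. siNRCP array 1 fell just below the highest sicontrol array, and the change was 0.48 ± 0.16 (limma, adjusted p = 0.222). KIF4A, which shapes chromosomes and the central spindle, read 8.11, 8.94 and 8.85 in siNRCP and 8.29, 7.93 and 8.09 in sicontrol. Its siNRCP array 1 lay within the sicontrol range, and the change was 0.53 ± 0.22 (limma, adjusted p = 0.353).

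The depolymerases shorten microtubules at their ends. One of them, KIF2C, which acts at centromeres, read 9.92, 10.16 and 10.29 in siNRCP and 10.07, 9.74 and 9.99 in sicontrol. The groups overlapped, and the change of 0.19 ± 0.13 did not pass the test with all arrays (limma, adjusted p = 0.628) or without siNRCP array 1 (adjusted p = 0.125). It was the only mitotic kinesin above background that missed the threshold in the fit without that array. KIF2A, which acts at spindle poles, had a change of 0.40 ± 0.19, and KIF18A, which keeps chromosomes aligned at the spindle centre, one of 0.35 ± 0.18. A second KIF18A probe gave 0.43 ± 0.12 with no overlap (limma, adjusted p = 0.152). KIF2A and KIF18A are named after their values were seen, and neither passed the test with all arrays.

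Among the motors of cytokinesis, the cleavage of the daughter cells, KIF20A read 10.40, 10.88 and 11.02 in siNRCP and 10.22, 9.93 and 10.02 in sicontrol. KIF23, the motor of the centralspindlin complex, read 10.33, 10.73 and 10.64 in siNRCP and 10.29, 9.82 and 10.11 in sicontrol. In both genes all siNRCP arrays lay above all sicontrol arrays, for KIF23 by only 0.037 at the nearest pair. The change was 0.71 ± 0.17 for KIF20A (limma, adjusted p = 0.105) and 0.49 ± 0.16 for KIF23 (limma, adjusted p = 0.209), whose second probe gave 0.48 ± 0.19. KIF20B and KIF14, named after their values were seen, are motors of the same stage with changes of 0.36 ± 0.21 and 0.33 ± 0.24, neither past the threshold. Without siNRCP array 1 KIF20A changed by 0.89 ± 0.12 (limma, adjusted p = 3.57e-05) and KIF23 by 0.60 ± 0.13 (limma, adjusted p = 0.00266).

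**Figure D2:**
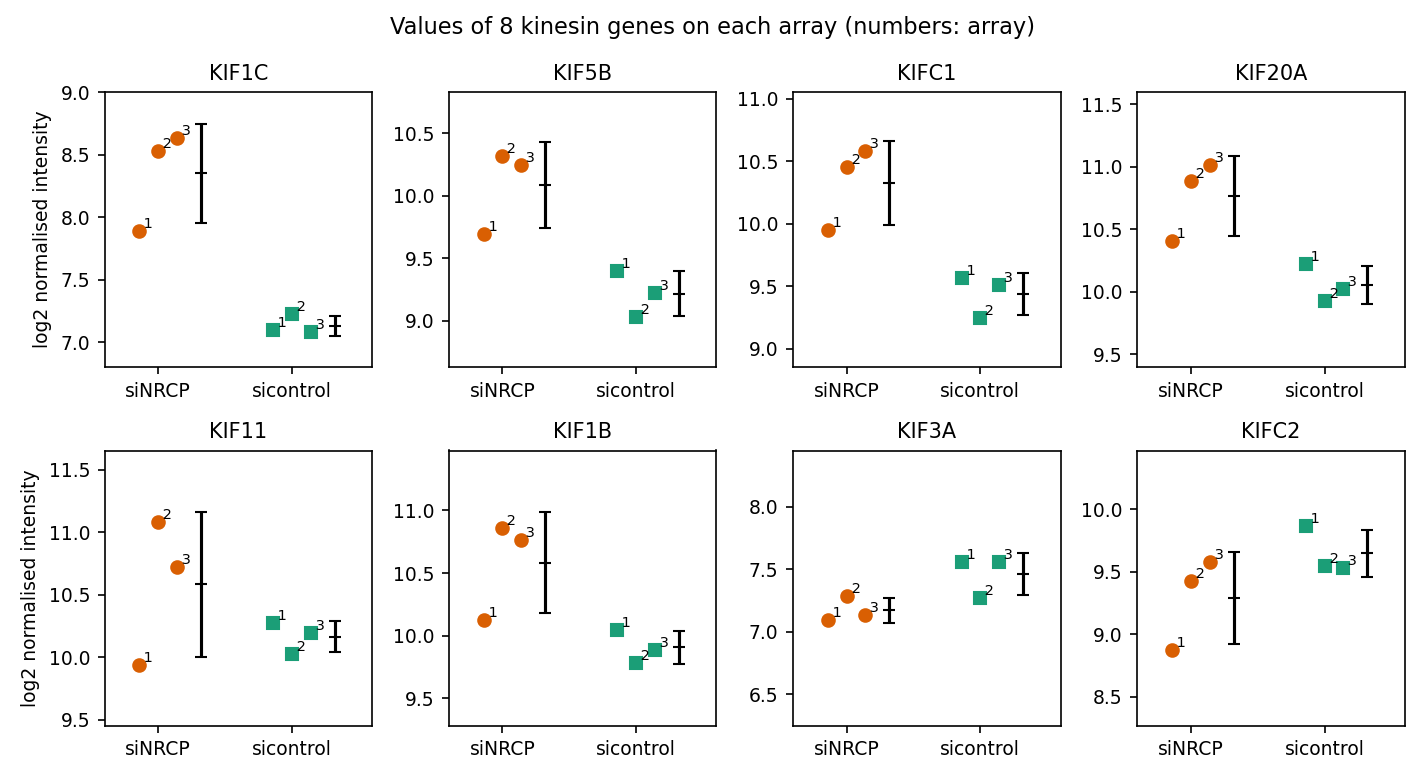
Log2 normalised intensity of 8 kinesin genes on each array, siNRCP left of sicontrol, with the array number beside each point and the mean and SD as bars. siNRCP array 1 is the lowest siNRCP array in all 8 panels. The groups do not overlap for KIF1C, KIF5B, KIFC1, KIF20A and KIF1B, and they do for KIF11, KIF3A and KIFC2.

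Promoter letters were read for the kinesins because many genes of late cell division carry a pair of elements there. One is the CHR (cell cycle genes homology region), bound by the DREAM and B-MYB complexes. It was searched as TTTGAA or TTCGAA on both strands, which also reads TTCAAA. The other is the CCAAT box of the factor NF-Y, searched as CCAAT or ATTGG. Windows ran from 250 bases before to 50 after the annotated start in RefSeq (GRCh38.p14), and 33 of the 41 genes had one. The windows of the genes with the largest changes are shown with those of KIF11, KIF4A and KIF22, in which both elements lie close together. Each has 150 bases before and 30 after the start, with the matched letters in capitals, as follows:
KIFC1 (chr6:33391673-33391852, plus strand): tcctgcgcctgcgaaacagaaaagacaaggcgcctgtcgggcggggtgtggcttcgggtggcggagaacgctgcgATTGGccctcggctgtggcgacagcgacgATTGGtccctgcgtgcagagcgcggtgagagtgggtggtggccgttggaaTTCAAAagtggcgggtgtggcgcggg
KIF11 (chr10:92592980-92593159, plus strand): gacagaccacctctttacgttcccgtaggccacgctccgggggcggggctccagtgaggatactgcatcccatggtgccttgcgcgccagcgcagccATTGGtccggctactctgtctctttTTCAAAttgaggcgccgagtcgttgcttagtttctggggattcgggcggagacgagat
KIF4A (chrX:70289954-70290133, plus strand): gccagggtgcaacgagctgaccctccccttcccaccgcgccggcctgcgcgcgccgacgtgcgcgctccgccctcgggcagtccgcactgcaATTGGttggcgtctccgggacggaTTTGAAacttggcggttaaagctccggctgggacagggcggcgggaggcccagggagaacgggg
KIF22 (chr16:29790601-29790780, plus strand): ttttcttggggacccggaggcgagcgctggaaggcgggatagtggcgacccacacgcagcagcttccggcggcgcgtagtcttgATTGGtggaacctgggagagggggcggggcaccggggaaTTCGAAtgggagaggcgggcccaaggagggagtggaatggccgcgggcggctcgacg
KIF20A (chr5:138178962-138179141, plus strand): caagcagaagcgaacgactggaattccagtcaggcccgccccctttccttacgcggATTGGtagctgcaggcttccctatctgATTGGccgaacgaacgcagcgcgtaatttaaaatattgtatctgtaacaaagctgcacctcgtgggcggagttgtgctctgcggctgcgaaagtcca
KIF5B (chr10:32056396-32056575, minus strand): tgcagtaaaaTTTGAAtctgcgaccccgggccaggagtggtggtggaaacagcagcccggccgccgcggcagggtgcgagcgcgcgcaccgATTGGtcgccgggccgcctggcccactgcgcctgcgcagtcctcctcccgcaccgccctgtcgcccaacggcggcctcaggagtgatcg
KIF1C (chr17:4997800-4997979, plus strand): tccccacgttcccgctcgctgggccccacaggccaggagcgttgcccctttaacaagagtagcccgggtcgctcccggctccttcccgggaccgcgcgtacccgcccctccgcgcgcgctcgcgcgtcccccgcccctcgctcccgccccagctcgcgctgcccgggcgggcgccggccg

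A CHR match stood in 10 of 14 mitotic kinesin genes, in 1 of the 12 transport genes with a listed window (KIF5B) and in 1 of the 7 others (KIF24). Of all genes with a RefSeq window of this length 19.5% held one, and of all windows 16.4%. CCAAT letters stood in 10 mitotic, 4 transport and 3 other genes, against 39.7% of all genes and 34.6% of all windows. Both kinds of match stood in 9 mitotic genes, against 7.85% of all genes and 6.38% of all windows. The CHR match began 28 bases before the start in KIF11, 34 in KIF4A and 27 in KIF22, and in each the CCAAT letters lay further upstream. KIF22 has a further annotated start, from which the same CHR letters lie 244 bases upstream with no CCAAT match in the window. In KIFC1 the match began at base 5 of the transcript, and in KIF5B it began 140 bases before the start. The 9 mitotic genes above background with a CHR match had a median change of 0.42, and the 3 without it (KIF20A, KIF2A and KIF2C) one of 0.40. A match is a string of letters in this window and was not tested as a site.

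**Figure D3:**
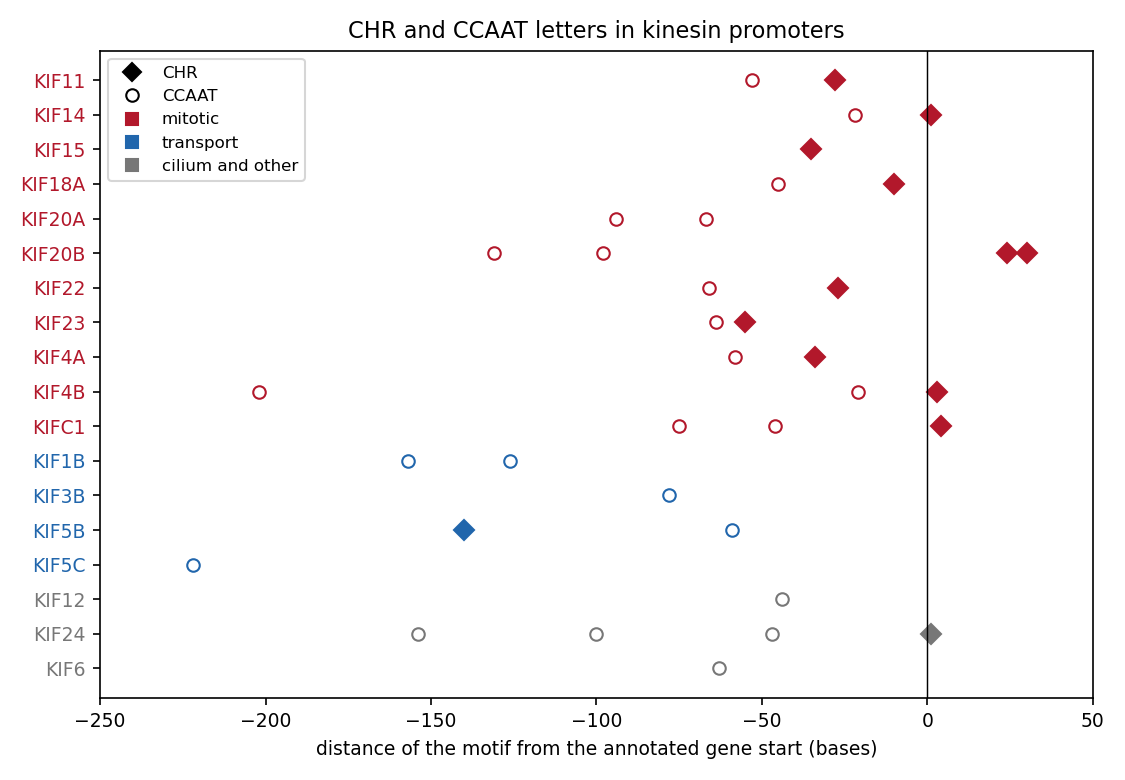
Distance of CHR letters (filled diamonds) and CCAAT letters (open circles) from the annotated start of each kinesin gene with a match, in bases, with 0 at the start. CHR letters appear in 10 mitotic genes, 1 transport gene (KIF5B) and 1 other gene (KIF24). Where a gene has several annotated starts, only the first listed with a match is drawn.

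The transport kinesins had changes of both signs. The 17 genes measured had a median change of 0.04, with 10 positive and 7 negative, and 11 of them were above background with a median of 0.16. That median was 0.43 without siNRCP array 1 and 0.0021 without siNRCP array 2, where the median of all named genes above background was 0.0058. The neuronal kinesins KIF1A, KIF5A and KIF5C were at background, as were KIF13A, KIF17 and KIFC3. KIF1C rose and 0 transport kinesins fell.

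KIF1C carries vesicles and integrins outward and is widely made. It read 7.89, 8.53 and 8.63 in siNRCP and 7.10, 7.22 and 7.08 in sicontrol, which gives means of 8.35 ± 0.40 and 7.13 ± 0.08 (SD, 3 arrays each). Every siNRCP array lay above every sicontrol array, and siNRCP array 1 was again the lowest of its group. The change was 1.22 ± 0.19, a 2.33-fold higher level in siNRCP (limma, adjusted p = 0.0298). KIF1C passed in 1 of the 6 fits that leave out an array, the one without siNRCP array 1 (1.44 ± 0.11, adjusted p = 2.73e-07). In the other such fits the adjusted p lay between 0.104 and 0.203, and over all alternatives the change stayed between 0.99 and 1.46.

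KIF5B is the widely made heavy chain of kinesin-1, which moves mitochondria and lysosomes. It read 9.69, 10.32 and 10.24 in siNRCP and 9.40, 9.03 and 9.22 in sicontrol, with no overlap. The change of 0.87 ± 0.18 missed the threshold (limma, adjusted p = 0.0725), and without siNRCP array 1 it was 1.05 ± 0.12 (adjusted p = 9.29e-06).

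KIF1B, which carries mitochondria and synaptic vesicle precursors, read 10.12, 10.86 and 10.77 in siNRCP and 10.05, 9.78 and 9.89 in sicontrol. The change of 0.68 ± 0.20 did not pass the test (limma, adjusted p = 0.168). Its other probes disagreed with this one and gave -0.06 ± 0.18 and 0.03 ± 0.09 (limma, adjusted p = 0.939 for each), and the transcripts each probe reads are not analysed here.

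The kinesin-2 genes also had changes of both signs. KIF3C read 7.19, 8.19 and 7.76 in siNRCP and 7.13, 7.11 and 7.16 in sicontrol, without overlap but with siNRCP array 1 only 0.033 above the highest sicontrol array. Its change was 0.58 ± 0.23 (limma, adjusted p = 0.314). KIF3A, the shared motor of the complex that builds cilia, read 7.09, 7.28 and 7.13 in siNRCP and 7.56, 7.27 and 7.56 in sicontrol. On 1 probe per gene it was the only kinesin with an unadjusted p under 0.05 on the lower side, at -0.29 ± 0.11 (limma, adjusted p = 0.312), and siNRCP array 2 overlapped sicontrol array 2. Its partner KIF3B, named after its value was seen, had -0.22 ± 0.12 on one probe and -0.24 ± 0.10 on the other (limma, adjusted p = 0.498 and 0.353), where the second probe also had an unadjusted p under 0.05 and no overlap. KIFAP3, the adaptor that joins KIF3A and KIF3B, had a change of -0.21 ± 0.14 (limma, adjusted p = 0.588). None of these 3 genes passed the test on the probe with the higher signal, with or without siNRCP array 1.

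KIFC2, a motor of the minus-end family first described in neurons, had the most negative change of the 41 genes. It read 8.88, 9.42 and 9.58 in siNRCP and 9.87, 9.55 and 9.53 in sicontrol. Only siNRCP array 1 stood well below the sicontrol arrays, and the change moved from -0.36 ± 0.19 (limma, adjusted p = 0.489) to -0.15 ± 0.12 without that array (adjusted p = 0.541).

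Of the kinesins of cilia and others 5 of 10 were above background, and none passed the test with all arrays. KIF24, which restrains cilium growth at the centriole, read 7.44, 8.47 and 8.15 in siNRCP and 7.58, 7.45 and 7.34 in sicontrol. siNRCP array 1 lay inside the sicontrol range, and the change was 0.56 ± 0.24 (limma, adjusted p = 0.367). KIF7, a regulator of Hedgehog signalling at the cilium tip, had a change of 0.33 ± 0.17, and its close relative KIF27 one of 0.26 ± 0.14. Other probes of KIF27 were at background and gave 0.13 ± 0.10 and 0.06 ± 0.09. KIF24, KIF7 and KIF27 were the 3 genes of the group called higher without siNRCP array 1, and 0 were called lower. The shares of all named genes above background were 29% and 24.5%. KIF24 was then at 0.85 ± 0.12 (limma, adjusted p = 7.86e-05).

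Mitotic and transport kinesins were set side by side by their medians. Over all measured members, with genes at background included, the mitotic median exceeded the transport median by 0.34. Taken against the sicontrol mean, this difference was 0.19, 0.50 and 0.48 in siNRCP samples 1 to 3, against 0.02, -0.09 and 0.05 in sicontrol samples 1 to 3. All siNRCP arrays lay above all sicontrol arrays in this measure. Its transport median of 0.04 is the value of KIFC3, a gene at background. Among members above background the difference was 0.25, and it was 0.35, 0.21 and 0.20 in the siNRCP samples, against -0.0018, -0.07 and 0.05 in the sicontrol samples. Without siNRCP array 1 the medians above background were 0.61 for the mitotic and 0.43 for the transport kinesins. These are descriptions with no test, because the classes were chosen with earlier results of these data known. Median scaling lowered the median of all named genes above background to -0.14, and the mitotic median above background then stood 0.28 and the transport median 0.12 above it. The difference between the classes over all measured members was 0.17 under that scaling.

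The class medians were also read array by array. Relative to the sicontrol mean, the mitotic genes above background had medians of -0.02, 0.67 and 0.58 in siNRCP samples 1 to 3, against 0.14, -0.17 and 0.01 in sicontrol samples 1 to 3. The transport genes above background had medians of -0.37, 0.46 and 0.38 on the siNRCP arrays, against 0.15, -0.10 and -0.04 on the sicontrol arrays. For all named genes above background the siNRCP medians were -0.02, 0.03 and 0.07. The mitotic median on siNRCP array 1 thus lay at that of all genes, and the transport median below it.

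**Figure D4:**
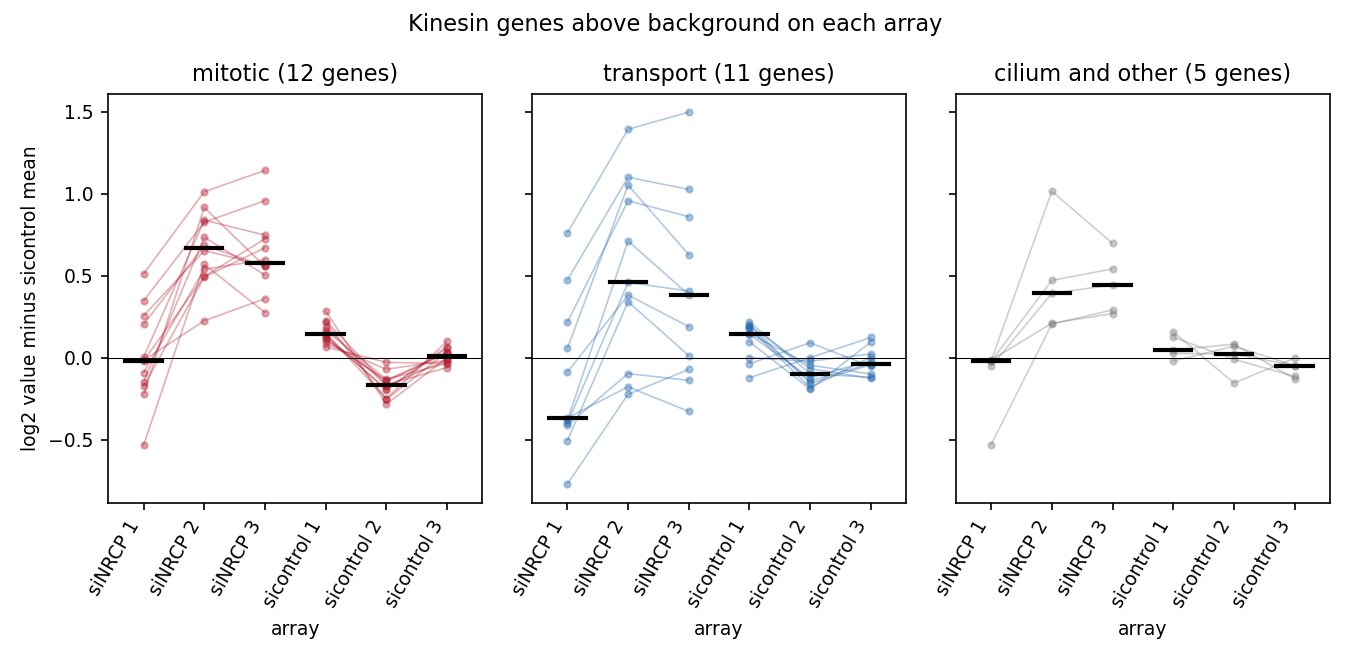
Log2 value of each kinesin gene above background minus its sicontrol mean, by array, in the mitotic, transport and other classes. Thin lines join the values of a gene and black bars mark the class median. The mitotic median is -0.02 on siNRCP array 1 and 0.67 and 0.58 on siNRCP arrays 2 and 3, and the transport median is -0.37, 0.46 and 0.38 on the same arrays.

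Genes of proteins that work with mitotic kinesins mostly had positive changes. The 20 partner genes had a median change of 0.56 with 17 positive and 3 negative, and 8 showed no overlap, against 15.7% of all named genes above background. TPX2, which recruits KIF11 to the spindle, was the 1 partner that rose. It read 10.01, 10.37 and 10.32 in siNRCP and 9.21, 9.13 and 9.29 in sicontrol, a change of 1.02 ± 0.12 (limma, adjusted p = 0.0124). CENPE, the kinesin of the kinetochore, had a change of 0.49 ± 0.23 and did not pass (limma, adjusted p = 0.419). PRC1, which brings KIF4A to the central spindle, had a change of 0.67 ± 0.25, and RACGAP1, the partner of KIF23, one of 0.33 ± 0.12. Both were named after their values were seen and did not pass the test. Without siNRCP array 1 the partners split into 16 called higher and 2 called lower of 20, against 29% and 24.5% of all named genes above background. The 2 called lower were AURKB and KNSTRN, named after their values were seen.

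General markers and regulators of division were set beside them. Of 16 such genes, among them MKI67, the cyclins and the DREAM and B-MYB subunits, 0 passed the test and 7 had an unadjusted p under 0.05, all higher, against 18.1% higher and 15.5% lower of all named genes above background. Their median change was 0.18, with 11 positive and 5 negative. Without siNRCP array 1 there were 6 called higher and 2 called lower of 16, against 29% and 24.5% of all named genes above background. The 2 called lower were CDK1 and PCNA, named after their values were seen. The share of cells in each phase of the cycle and its part in the kinesin values were not tested.

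The cargo adaptors of transport kinesins had a median change of 0.07 over 20 measured of 22 genes, and 0 passed the test. At an unadjusted p under 0.05, 5 were higher and 2 lower of the 19 above background. The shares of all named genes above background were 18.1% and 15.5%. KLC1, the light chain that links KIF5B to cargo, read 10.80, 11.35 and 11.09 in siNRCP and 10.81, 10.59 and 10.73 in sicontrol. siNRCP array 1 lay within the sicontrol range, and the change was 0.37 ± 0.15 (limma, adjusted p = 0.331). Without siNRCP array 1 there were 8 adaptors called higher and 1 called lower of 20, against 29% and 24.5% of all named genes above background.

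Dynein, the motor that walks the opposite way, and its activator dynactin showed no common direction. The 26 genes measured of 28 had a median change of 0.02, with 14 positive and 12 negative. BICD2, which links dynein to cargo, was the 1 gene that rose, at 9.82, 10.28 and 10.43 in siNRCP and 8.74, 8.82 and 8.76 in sicontrol (change 1.40 ± 0.16, limma adjusted p = 0.0117). Without siNRCP array 1 there were 7 called higher and 9 called lower of the 24 above background, against 29% and 24.5% of all named genes above background.

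The tubulins, the track itself, mostly had negative changes. The 16 genes had a median change of -0.18, with 5 positive and 11 negative. TUBB2B was the 1 tubulin that fell, reading 7.28, 7.16 and 7.13 in siNRCP and 8.61, 8.37 and 8.30 in sicontrol (change -1.23 ± 0.11, limma adjusted p = 0.0076). Tubulin genes are close copies of each other, so their probes may share signal. Without siNRCP array 1 there was 1 tubulin called higher and 6 called lower of 16, against 29% and 24.5% of all named genes above background. TPX2, BICD2 and TUBB2B each lost their call when siNRCP array 3 or any sicontrol array was left out, with adjusted p between 0.0516 and 0.120.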

How the data were processed

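Per the labels' protocols, total RNA from each SKOV3 sample was labelled as biotinylated cRNA and read on Illumina BeadArrays. The deposited table held bead intensity per probe, which the authors exported with BeadStudio per the submitters' processing notes; its version is not given in the sources used here. A second deposited table, the series matrix, gave quantile-normalised log2 values of the authors with a median of 7.01. It lay within 0.0647 of the intensities after log2 and quantile normalization and served as an alternative, with its target distribution unknown. The table held 0 columns of other samples and no detection p-values.

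The intensities were background corrected by normexp (offset 50), quantile normalized and put on the log2 scale. All 47231 probes were then fitted with lmFit and eBayes of limma 3.58.1 under R 4.3.3, with Benjamini-Hochberg adjustment over all probes and no covariate. Probe annotation gave 30113 probes 1 symbol, 8 several and 17110 none. Of these 30074 matched RefSeq by Entrez identifier, and 0 symbols were updated. Array number limits the precision.

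The members, classes, lists and tests were chosen with earlier results of these data known. Genes named were every kinesin past the threshold, those with the largest change above background (5 each for mitotic and transport, 3 for others), and KIF11, KIF23, KIF20A, KIF2C, KIF5B, KIF3A, KIFC1, CENPE, KIFAP3 and KLC1, plus up to 3 changed genes per list. Others are marked where they appear.

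The fit was tested on simulated data drawn with the spread of each probe in these arrays: of probes changed by 1.5-, 2- and 4-fold it recovered 5.97%, 38.8% and 66.7%, with 1 false call among 47231. Each probe was drawn independently there, without the shifts that many probes share on a real array. The simulated recovery and false calls therefore do not measure those in these data. Same-numbered samples were checked for pairing. Their deviations correlated at -0.64, -0.43 and -0.20, so no pairing was used. Between samples of unlike number the correlations ran from -0.53 to 0.63. The 17 alternatives were other background corrections, normalizations and fits, the deposited series matrix, array weights, a replicate block, the mean of probes, filters on background and leaving out each array.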

Additional observations from a re-analysis of the deposited data

How the results depend on the processing

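The 781 probes called (44.6% higher) became 254 under median scaling (43 higher and 211 lower, 16.9% higher), 469 with trend and robust options and 8167 with array weights. Leaving out 1 array gave between 5 and 9933 probes: 9933, 188 and 39 without siNRCP arrays 1 to 3, and 12, 18 and 5 without sicontrol arrays 1 to 3. Kinesin genes called numbered 0 with no background correction, median scaling or the series matrix (8 in each with an unadjusted p under 0.05), 3 with cyclic loess (KIF1C, KIFC1 and KIF5B), 17 with array weights and between 0 and 20 when 1 array was left out. KIF1C lost its call under those 3 (changes of 0.99, 1.04 and 1.01), and its adjusted p ran from 2.73e-07 to 0.203 over 16 alternatives. With no background correction, median scaling and the series matrix, 6226, 5626 and 6220 of all 47231 probes had an unadjusted p under 0.05.

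Replicate numbers did not pair the samples. The replicate block gave 0 probes (4887 with an unadjusted p under 0.05), 0 kinesins (7 unadjusted), 0 partners, 0 dynein genes and 0 tubulins, with KIF1C at an adjusted p of 0.162 in limma.

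Partners called numbered 0 under median scaling, 16 with array weights and 0 to 18 when 1 array was left out. Dynein genes numbered 2 with cyclic loess, 13 with array weights and 0 to 16. Tubulins numbered 2 with cyclic loess or the mean of probes, 6 with array weights and 0 to 7. Adaptors numbered 7 with array weights and 0 to 9, and proliferation regulators 9 and 0 to 8. The lists held 20 partners, 26 dynein genes, 16 tubulins, 20 adaptors and 16 regulators. Array weights called 8167 of all 47231 probes. The highest counts with 1 array left out came without siNRCP array 1. That fit called 29% of all named genes above background higher and 24.5% lower. Over all measured members the mitotic minus transport difference was 0.17 under median scaling, 0.49 with array weights and 0.24 to 0.45 when 1 array was left out. The medians of the same members with 1 array left out were 0.25 to 0.60 for mitotic, -0.05 to 0.15 for transport and 0.09 to 0.24 for other kinesins. Above background the mitotic and transport medians were 0.41 and 0.16 in the main fit. They were 0.61 and 0.43 without siNRCP array 1, and 0.56 and 0.36 with array weights. KIF2C turned to -0.066 under median scaling, and KIF15 to -0.13 there. When 1 array was left out KIF15 ran from -0.13 to 0.42, with -0.13 without siNRCP array 2 and -0.023 without sicontrol array 2. Of 480 gene values under alternatives 408 kept direction and side of the threshold, 25 lost and 43 gained a call. The cause of these shifts was not tested. Genes at background carry no usable change.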

Other observations

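Long genes stood apart between the siNRCP arrays, and the median kinesin gene was longer than the median named gene. Some kinesin genes, such as KIF20A, KIFC1, KIF22 and KIFC2, were shorter than that median. The median genomic span was 65.8 kb for mitotic and 55.9 kb for transport kinesins above background, against 28.1 kb for all named genes above background. Across 28 kinesin genes above background, span and the mean of siNRCP arrays 2 and 3 minus siNRCP array 1 had a Spearman rho of 0.50, and across 11550 named genes above background one of 0.42. With siNRCP minus sicontrol the rho was -0.09 for the kinesins and 0.21 for all. With siNRCP array 1 minus the sicontrol mean it was -0.31 for the kinesins and -0.22 for all. These describe genes on shared arrays, which are not independent, and the part of span in the kinesin values was not tested.

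Among the small chains of dynein, DYNLL1, DYNLL2, DYNLRB1 and DYNLT1 were lower without siNRCP array 1, and DYNLT3 did not pass. DYNLL2 read 8.25, 7.43 and 7.19 in siNRCP and 8.15, 8.22 and 8.18 in sicontrol (limma, adjusted p = 0.385 with all arrays and 2.7e-05 without siNRCP array 1). PAFAH1B1, a dynein regulator, read 9.64, 10.78 and 10.68 in siNRCP and 9.57, 9.51 and 9.35 in sicontrol (limma, adjusted p = 0.207 with all arrays and 1.17e-06 without siNRCP array 1). These genes were picked after their values were seen. siNRCP array 1 was the highest siNRCP array in DYNLL1, DYNLL2, DYNLRB1 and DYNLT1 and the lowest in PAFAH1B1. The direction of each shift without it was thus fixed, and adjusted p-values of that fit are no independent support for these genes. It called 29% of all named genes above background higher and 24.5% lower.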
